A study of Rattus norvegicus with 6 samples.

Results

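The leukocyte adhesion and homing molecules described here are 9 genes, Itgal, Itgam, Itgad, Itgb2, Itgb7, Itga4, Selplg, Icam1 and Vcam1, picked from the gene table by name, and no value enters that rule. The table held a row for 8 of the 9 among its 30957 genes, and Itgad was not analysed here because no row carried its name. The counts came from 6 RNA-seq libraries of the lumbar enlargement of adult female Wistar rats, taken from the operated side on day 14 after the meninges had been stripped. BCP (bone cancer pain) libraries 1, 2 and 3 came from rats inoculated in the left tibia with living Walker 256 cells, a rat mammary carcinoma line, and sham libraries 1, 2 and 3 from rats that received the same surgery with heat-killed cells, so both groups carry an opened tibia and tumor cell material. The labels do not state whether each library is a single animal, so the p-values measure the spread between these libraries. The rats were decapitated and bled, and perfusion was not described.

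Leukocytes leave the blood in steps. Selectins and their ligand PSGL-1 let the cell roll along the vessel wall, chemokine signals then switch integrins into their binding state, and the integrins hold the cell on ICAM-1 and VCAM-1 until it crosses the endothelium. Integrins are heterodimers of an alpha and a beta chain, and microglia, the resident macrophages of the spinal cord, carry some of the same integrins without having crossed a vessel in adult life.

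The libraries held 11779485 to 15004290 counts on genes. Counts are given as CPM, which is scaled to library size after TMM normalization, and were tested with edgeR's quasi-likelihood test. A gene was called up- or down-regulated when its Benjamini-Hochberg adjusted p-value was under 0.05 and its log2FC, the log2 fold change of BCP over sham, was over 1 in size. By this rule 6.35% of the 14908 tested genes were up-regulated and 0.107% down-regulated. All 8 genes with a row passed the filter on low counts, 7 were up-regulated, and none was down-regulated. Selplg was higher by less than 2-fold. In all 8 the BCP libraries lay above every sham library in CPM, as they did for 21.7% of the tested genes. Itgb7 passed the filter only through its BCP libraries, so its place in these counts follows in part from its difference. The median log2FC of the 8 genes was 2.26, and that of all tested genes was -0.01. In bulk tissue more cells of a type and more RNA per cell cannot be told apart.

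**Figure D1:**
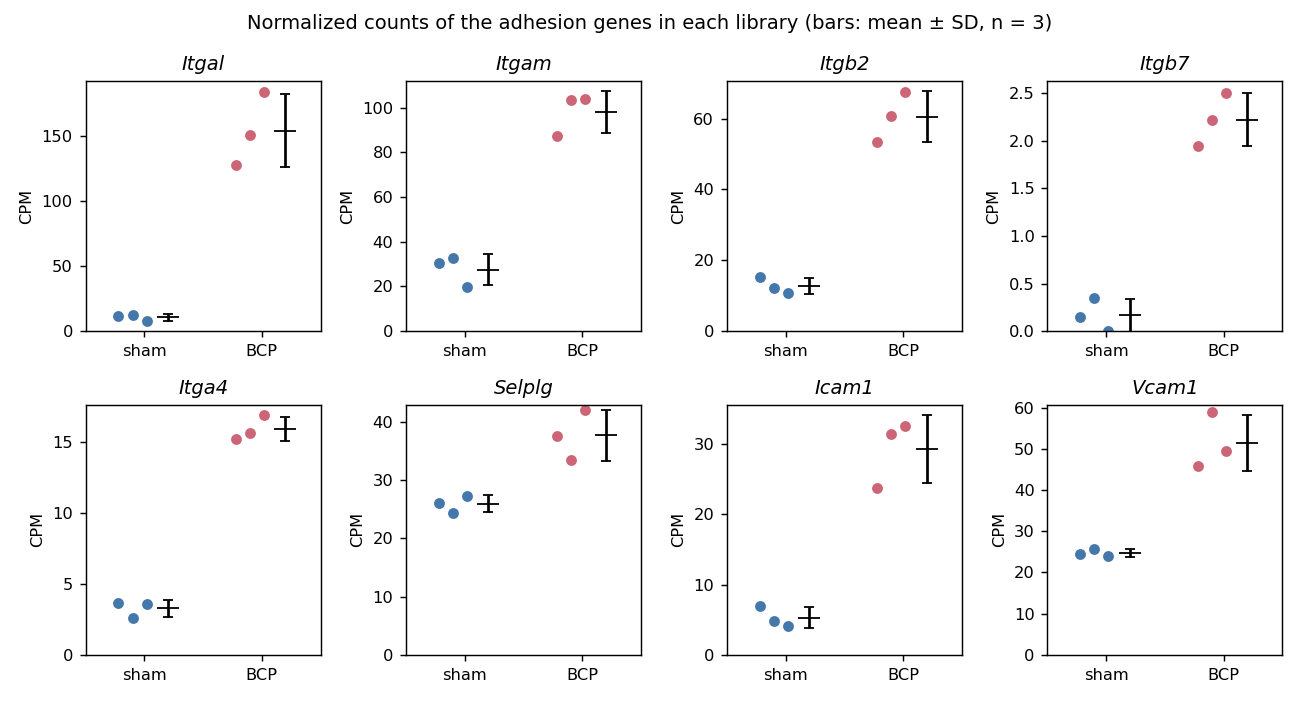
CPM (counts scaled to library size after TMM normalization) of the 8 adhesion genes in each of the 3 sham (blue) and 3 BCP (red) libraries, with the mean ± SD of each group beside the points and each axis starting at 0. The groups do not overlap in any panel, and the means differ from 10.6 against 154 CPM in Itgal to 25.9 against 37.6 CPM in Selplg.

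The promoters of 5 of the 9 genes were found in RefSeq on the GRCr8 assembly, and 3 of them are shown because they hold matches and differ in the motifs. They are those of Icam1 and Vcam1, the counter-receptors of the vessel wall, and of Itgam, a myeloid integrin chain. The promoters of Itga4 and Itgb7 were searched too and are not shown. Each run gives the 250 bases before the annotated start, 5′ to 3′ on the strand of the gene, with matches to the motifs named next in capitals. Icam1 lies at chr8:27829595-27829844 on the plus strand, Vcam1 at chr2:206742784-206743033 on the minus strand and Itgam at chr1:192089342-192089591 on the plus strand.
Icam1: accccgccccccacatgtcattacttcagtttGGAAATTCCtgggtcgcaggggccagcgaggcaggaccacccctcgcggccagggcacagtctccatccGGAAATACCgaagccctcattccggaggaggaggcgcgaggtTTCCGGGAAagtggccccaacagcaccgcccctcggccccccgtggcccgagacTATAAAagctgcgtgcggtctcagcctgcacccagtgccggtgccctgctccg
Vcam1: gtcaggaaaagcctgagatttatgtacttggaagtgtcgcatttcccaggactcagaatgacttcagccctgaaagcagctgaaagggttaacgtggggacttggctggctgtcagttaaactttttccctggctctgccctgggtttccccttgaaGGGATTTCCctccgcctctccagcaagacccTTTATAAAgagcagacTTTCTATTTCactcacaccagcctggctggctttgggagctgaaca
Itgam: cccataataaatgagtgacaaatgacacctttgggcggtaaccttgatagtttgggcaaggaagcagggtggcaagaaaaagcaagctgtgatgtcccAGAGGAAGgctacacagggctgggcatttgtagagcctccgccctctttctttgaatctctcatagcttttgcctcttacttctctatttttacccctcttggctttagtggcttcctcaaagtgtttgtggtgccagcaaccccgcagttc

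Both strands were searched, and the motifs were chosen with these promoters in view. The kappa-B pattern GGNATTTCC, recognized by NF-kappa-B, matched at 218 and 149 bases before the start of Icam1 and at 93 bases before that of Vcam1, and it was held by 1.14% of the 33469 promoters in the same window. The STAT pattern TTCCNGGAA matched in Icam1 at 107 bases and in 1.07% of promoters. The interferon-stimulated response pattern GAAA, any 2 bases and GAAA, matched in Vcam1 at 46 bases and in 3.41% of promoters, and the PU.1 pattern AGAGGAAG in Itgam at 152 bases and in 3.58%. The TATA pattern TATAAA, held by 12.9% of promoters, matched in Icam1, in Itgb7 and, on both strands, in Vcam1, where the matches overlap. Of the 5 promoters found, 2 held the kappa-B pattern, and 1 each held the STAT, interferon-stimulated response and PU.1 patterns. The Itgb7 promoter matched the TATA pattern alone, and that of Itga4 matched no pattern. A match describes the letters and is not a measurement of binding.

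Icam1 encodes ICAM-1, an adhesion receptor on activated endothelium, microglia and astrocytes that binds the beta-2 integrins. The row Icam1 (ENSRNOG00000020679, chr8:22035256-22047059, Rnor_6.0) had 6.94, 4.82 and 4.05 CPM in sham libraries 1, 2 and 3 and 23.8, 31.4 and 32.6 CPM in BCP libraries 1, 2 and 3. The lowest BCP library was thus above the highest sham library, and BCP library 1 was the lowest of its group. Its log2FC was 2.49 (standard error 0.18, edgeR adjusted p = 6.76e-07). Vcam1 encodes VCAM-1, the counter-receptor of alpha-4 integrins on inflamed endothelium. Vcam1 (ENSRNOG00000014333, chr2:219071193-219097619) had 24.6, 25.7 and 23.9 CPM in the sham libraries against 45.9, 59.0 and 49.4 CPM in the BCP libraries, with BCP library 2 highest. Its log2FC of 1.06 (standard error 0.09, edgeR adjusted p = 2.82e-08) lay just past the threshold, and without BCP library 2 it was 0.95, so that the call was lost on the fold change and not on the p-value.

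The 10 endothelial markers had a median log2FC of -0.01 over members that went both ways, from -0.32 to 0.41, and none was called. With the adjusted p-value alone 1 was higher and 1 lower, beside 2352 higher and 1805 lower of all 14908 tested genes, so these counts do not set the list apart. Vwf, the von Willebrand factor of endothelium and platelets, was higher in all BCP libraries (log2FC 0.41, edgeR adjusted p = 1.01e-05), and Mfsd2a, a lipid transporter of the blood-brain barrier, was lower (log2FC -0.32, edgeR adjusted p = 0.0256). Of the other vascular counter-receptors, Sele (E-selectin) had 17, 8 and 10 counts in the sham libraries against 10, 24 and 8 in the BCP libraries, which overlap (log2FC 0.36, standard error 0.45, edgeR adjusted p = 0.614). Selp (P-selectin) had 1, 0 and 0 counts against 2, 7 and 0, and Madcam1, the ligand of the alpha-4 beta-7 integrin in gut venules, had 1 count in sham library 2 and none in the others. Both were too low to test. A difference in P-selectin or MAdCAM-1 was not detectable at this depth.

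The beta-2 integrins share the chain CD18, encoded by Itgb2, and are restricted to leukocytes and microglia. Itgb2 (ENSRNOG00000001224, chr20:11777783-11815647) had 15.3, 12.2 and 10.9 CPM in the sham libraries against 53.3, 60.7 and 67.6 CPM in the BCP libraries, a log2FC of 2.25 (standard error 0.12, edgeR adjusted p = 2.36e-09). Itgal encodes CD11a, which forms LFA-1 with CD18, the main integrin of lymphocytes and a receptor for ICAM-1. Itgal (ENSRNOG00000017980, chr1:198744050-198781750) had 11.7, 12.6 and 7.57 CPM in the sham libraries against 128, 151 and 184 CPM in the BCP libraries. The lowest BCP library exceeded the highest sham library by far, and the log2FC was 3.87 (standard error 0.25, edgeR adjusted p = 0.000651).

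Itgam encodes CD11b, which forms Mac-1, the complement receptor of microglia and other myeloid cells. Itgam (ENSRNOG00000019728, chr1:199495298-199623960) had 30.5, 32.6 and 19.6 CPM in the sham libraries against 87.3, 103 and 104 CPM in the BCP libraries. Sham library 3 was lowest, and the log2FC was 1.84 (standard error 0.22, edgeR adjusted p = 0.00393). The span of this row is 128663 bp and encloses that of Itgax, and RefSeq on GRCr8 places Itgam, Itgax and Itgad next to each other in that order. The counted length behind the FPKM of the Itgam row was 7647 bases, against 4511 for Itgal and 4673 for Itgax. Whether the row also took counts from Itgad was not tested. Itgax encodes CD11c, an alpha chain of dendritic cells and activated microglia, and had 7, 8 and 6 counts in the sham libraries against 382, 508 and 456 in the BCP libraries. Its log2FC was 6.09 (standard error 0.17, edgeR adjusted p = 2.74e-15).

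Levels of different genes were compared in FPKM, which is per length. As a percent of the summed FPKM of Itgal, Itgam and Itgax, the Itgam row held 59.6%, 59.5% and 59.2% in the sham libraries against 24.4%, 24.7% and 22% in the BCP libraries. Itgal held 38.7%, 38.9% and 38.8% in the sham libraries against 60.8%, 61.1% and 66.0% in the BCP libraries. Itgax went from 1.71%, 1.67% and 2.01% to 14.8%, 14.2% and 12%. So among these 3 rows that of Itgam led in every sham library and that of Itgal in every BCP library. Itgad was not in the sum, and its part in the Itgam row was not tested. The mean Itgam share was 59.4% ± 0.205 in sham and 23.7% ± 1.5 in BCP libraries (SD, n = 3), and that of Itgal was 38.8% ± 0.0980 and 62.6% ± 2.94 (SD, n = 3). An exact two-sided permutation test over the libraries gave p = 0.1 for each of the 3 shares, the smallest that 3 against 3 allows (0.107 when adjusted over the 15 ratios and shares tested in this way).

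**Figure D2:**
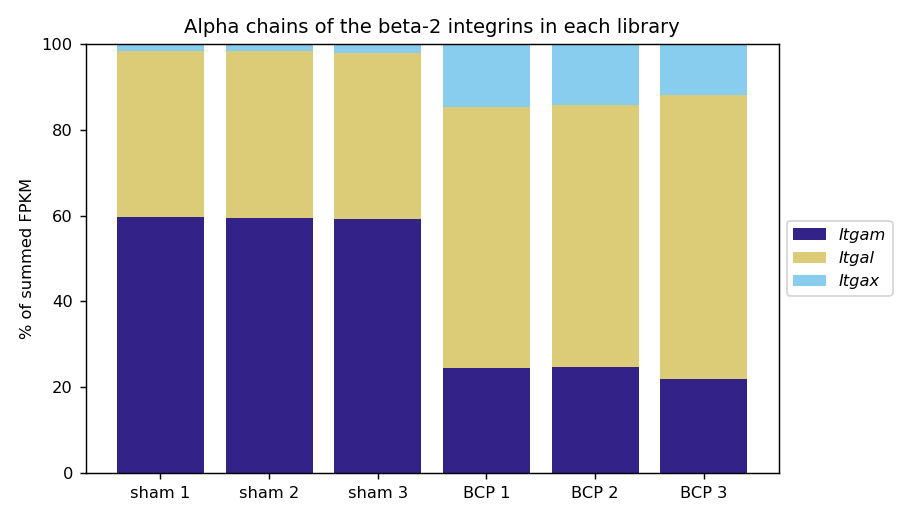
Shares of Itgam, Itgal and Itgax in their summed FPKM (fragments scaled to gene length and library size), in percent, in each of the 6 libraries. Itgam fills 59.2% to 59.6% of the bar in the sham libraries against 22% to 24.7% in the BCP libraries, while Itgal and Itgax fill more of it in every BCP library.

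The summed FPKM of these alpha chains was set against that of their partner Itgb2. The log2 ratio was 0.47, 0.89 and 0.33 in the sham libraries against 1.47, 1.51 and 1.52 in the BCP libraries. The mean was 0.94 higher in BCP libraries, with no overlap between the groups (exact two-sided permutation test, p = 0.1, adjusted p = 0.107). The alpha chain transcripts were thus more abundant than the shared beta chain in every library, and by a wider margin in each BCP library.

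Itga4 encodes the alpha-4 chain, which binds VCAM-1 when paired with the beta-1 chain (VLA-4) and MAdCAM-1 when paired with the beta-7 chain. Itga4 (ENSRNOG00000004861, chr3:66193059-66263960) had 3.66, 2.58 and 3.58 CPM in the sham libraries against 15.2, 15.6 and 16.9 CPM in the BCP libraries. The BCP libraries lay close together, and the log2FC was 2.28 (standard error 0.16, edgeR adjusted p = 1.69e-09). Its partner Itgb1, which neurons, glia and vessels also use, overlapped between the groups at 203, 191 and 181 CPM in the sham libraries against 199, 205 and 208 CPM in the BCP libraries (log2FC 0.09, edgeR adjusted p = 0.183). The log2 ratio of Itga4 to Itgb1 in FPKM was 2.20 higher in BCP libraries, at -3.52 ± 0.05 against -5.72 ± 0.29 in sham libraries (SD, n = 3, exact two-sided permutation test, p = 0.1, adjusted p = 0.107), and Itgb1 stayed the more abundant chain in every library.

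Itgb7 encodes the beta-7 chain, which lymphocytes use for homing to the gut with alpha-4 and for binding E-cadherin with alpha-E. Itgb7 (ENSRNOG00000012208, chr7:143820900-143837780) had 2, 5 and 0 counts in the sham libraries against 23, 31 and 33 in the BCP libraries, the lowest level of the 8 genes. The summed counts, 7 against 87, gave a ratio of 13.4 after scaling to library size (exact 95% interval 6.26 to 34.4, counting error only). The fitted log2FC was 3.67 (standard error 0.52, edgeR adjusted p = 1.67e-05). It was 4.78 without sham library 2 and 3.08 without sham library 3, so its size rests on few counts, and its order beside Itgal changes with the library left out. Its partner Itgae, which encodes alpha-E, had 5.11, 7.12 and 7.57 CPM against 8.62, 7.93 and 7.5 CPM, overlapping between the groups (log2FC 0.27, edgeR adjusted p = 0.271).

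The FPKM ratio of Itgb7 to Itgae was 0.0523, 0.0860 and 0 in the sham libraries against 0.395, 0.490 and 0.585 in the BCP libraries (exact two-sided permutation test, p = 0.1, adjusted p = 0.107). The ratio of Itgb7 to Itga4 was 0.0506, 0.164 and 0 against 0.155, 0.173 and 0.180, so the groups overlapped (exact two-sided permutation test, p = 0.2, adjusted p = 0.2). Itgb7 and Itga4 transcripts were thus not shown to change in unequal measure, and at 0 to 5 counts in the sham libraries the ratio there is poorly determined.

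Selplg encodes PSGL-1, the mucin on leukocytes and microglia that selectins bind. Selplg (ENSRNOG00000000699, chr12:48577905-48579196) had 26.0, 24.4 and 27.3 CPM in the sham libraries against 37.5, 33.4 and 42.0 CPM in the BCP libraries. The groups did not overlap, but the log2FC of 0.54 (standard error 0.09, edgeR adjusted p = 0.000168) was under the threshold on the fold change. With the adjusted p-value alone all 8 genes passed upward, as did 15.8% of all tested genes. In a test against a fold change of 2, 5 of the 8 passed, beside 3.68% of all tested genes.

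On the FPKM scale Selplg had the highest level of the 8 genes in the sham libraries, at 20.1 ± 1.12 (SD, n = 3). It was followed by Vcam1 (4.54 ± 0.174), Itgb2 (4 ± 0.686), Itgam (3.55 ± 0.9), Itgal (2.32 ± 0.582) and Icam1 (1.96 ± 0.550), of which each overlapped its neighbor in this order. Itga4 (0.986 ± 0.178) and Itgb7 (0.0613 ± 0.0643) lay below with no overlap. In the BCP libraries Itgal came first at 34.7 ± 6.50 FPKM, but its libraries overlapped those of Selplg at 30.1 ± 3.52. Itgb2 (19.5 ± 2.45) lay apart from its neighbors, Itgam (13 ± 1.33), Icam1 (11.2 ± 1.93) and Vcam1 (9.72 ± 1.32) overlapped in turn, and Itga4 (4.93 ± 0.303) and Itgb7 (0.836 ± 0.110) were again lowest. By the group means Itgal thus moved from the fifth place to the first. This order did not hold in each library. Selplg was above Itgal in BCP library 1 (29.8 against 28.5 FPKM), and Icam1 was above Itgal in sham library 1 (2.58 against 2.54 FPKM).

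The other genes of the adhesion cascade were followed in 4 lists. In each list 2 of the tested genes reached the filter on low counts only through the BCP libraries, among them Itgax, Itga2b, Spn, Cd2 and Cd226, so that their calls follow in part from the filter. Of 16 tested genes for selectins and the synthesis of their ligands 8 were up-regulated and none down-regulated, with a median log2FC of 0.78. Gcnt1, which builds the branched glycan that carries the selectin ligand on PSGL-1, rose from 4.41 ± 0.752 to 21.3 ± 3.29 CPM (SD, n = 3, log2FC 2.27), and Spn, the leukocyte mucin CD43, had a log2FC of 3.37. Cd44, the hyaluronan receptor, had a log2FC of 1.07.

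Of 19 tested genes for integrin activation 7 were up-regulated and none down-regulated, with a median log2FC of 0.47. Fermt3, the kindlin of blood cells that switches integrins on, had 7.40, 7.61 and 6.35 CPM in the sham libraries against 24.0, 31.9 and 39.9 CPM in the BCP libraries (log2FC 2.17, standard error 0.19, edgeR adjusted p = 1.76e-05). Tln1, the talin that most cells use for the same step, had a log2FC of 0.47 (edgeR adjusted p = 2.32e-06), which did not reach 2-fold. The adaptor Apbb1ip, which links Rap1 to talin, had a log2FC of 1.49, the exchange factor Vav1 of 2.90, Cyth4 of 1.77 and the adaptor Skap2 of 1.03, all called.

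The other integrin chains and adhesion receptors had list medians near that of all tested genes. Among 17 tested integrin chains 4 were up-regulated and none down-regulated, with a median log2FC of 0.03. They were Itgax, Itga2b (log2FC 3.35), Itgb3 (1.16) and Itga5 (1.36). Itga2b and Itgb3 encode the fibrinogen receptor of platelets, and Itga5 a chain of the fibronectin receptor. Of 18 tested rows of other adhesion receptors 3 were up-regulated, namely Cd2 (log2FC 4.95), Cd226 (2.79) and Cd48 (1.06), all receptors of T cells, natural killer cells or other leukocytes, and none was down-regulated (median 0.05). Of the rows that reached the filter in every sham library, 1 of 15 of these receptors and 2 of 15 of these chains were up-regulated. The same count was 6 of 13 for the selectin list and 6 of 17 for integrin activation, beside 6.35% of all tested genes.

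**Figure D3:**
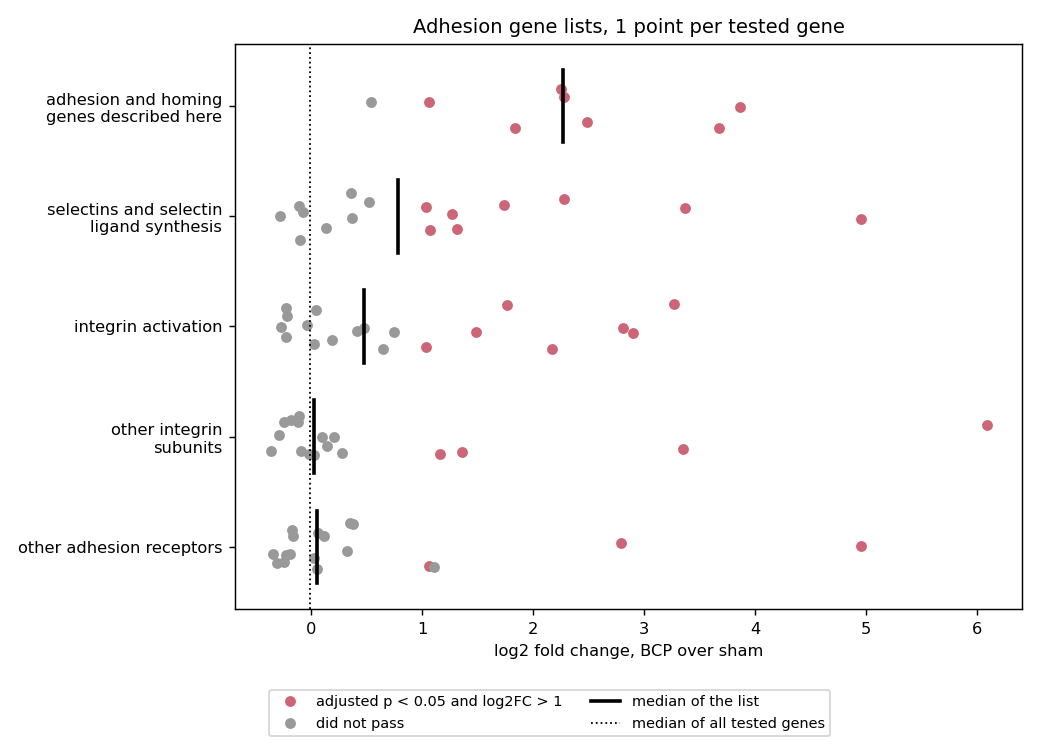
Log2 fold change of BCP over sham for each tested gene of the 8 adhesion genes and of the 4 lists of other adhesion genes, red where the gene passed both thresholds. Black bars mark the list medians (2.26, 0.78, 0.47, 0.03 and 0.05 from top to bottom), and the dotted line marks the median of all tested genes at -0.01.

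Markers of several cell types moved with these genes. The 12 microglia markers, of which Siglech was at 0, had a summed level of 351 to 415 CPM in the sham libraries against 700 to 816 CPM in the BCP libraries, and 4 of the 11 tested were up-regulated (Aif1, Cx3cr1, Csf1r and P2ry13), with a median log2FC of 0.52. The 10 T cell markers went from 7.43 to 8.03 CPM in sum to 54.1 to 62.4 CPM, and all 8 tested were up-regulated. Of these 8, 6 passed the filter only through the BCP libraries and had to differ, while Cd4 (log2FC 2.10) and Cd6 (2.13) reached it in every sham library too. Sham libraries 1, 2 and 3 held 58, 81 and 77 counts of Cd4 and 22, 18 and 21 of Cd6, beside 0, 0 and 1 of Cd3e. Which cells held the Cd4 and Cd6 counts was not tested. Neutrophil markers were low in both groups but higher in every BCP library, at 0.153 to 0.878 CPM in sum against 2.57 to 6.59 CPM. The sole tested marker of 8, S100a8, passed only through the BCP libraries (1, 0 and 0 against 23, 15 and 10 counts). Among those too low to test, S100a9, Ngp and Cxcr2 had every BCP library above every sham library, while Mpo, Elane, Camp and Retnlg overlapped. The list of monocytes and border macrophages went from 350.4 to 375 CPM to 536 to 601 CPM in sum, with 1 of 7 tested genes up-regulated, Plac8 (log2FC 5.01), and Fn1, which encodes fibronectin, higher by less than 2-fold (log2FC 0.61, edgeR adjusted p = 6.51e-08). The median log2FC of that list was 0.12. Its genes Lyve1 (log2FC -0.52), Cd163 (-0.27) and F13a1 (-0.15) were lower, Mrc1 (0.17) and Vcan (0.12) higher, all with overlapping groups. No B or plasma cell marker had enough counts to be tested. The red blood cell list went from 178 to 186 CPM to 313 to 478 CPM in sum, with 4 of 5 genes called. The part of these cell types in the adhesion genes was not tested. Neuron markers summed to 6766 to 7012 CPM in sham and 5931 to 6540 CPM in BCP libraries, and 4 of the 8 were lower by the adjusted p-value alone. Astrocyte markers summed to 4272 to 4560 CPM in sham and 6056 to 7817 CPM in BCP libraries, with 1 of 8 higher (Gfap, log2FC 0.80, edgeR adjusted p = 5.27e-05) and 3 lower by the adjusted p-value alone. By that rule 2352 of all 14908 tested genes were higher and 1805 lower. Aqp4, the astrocyte water channel, had 28568 counts in BCP library 1 and 4637 to 5427 in the other libraries. No gene of either list passed both thresholds, and their part in the adhesion genes was not tested.

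To set the adhesion genes beside microglia, the mean log2 CPM of the 11 tested microglia markers was subtracted from that of each gene in each library. Itgal went from -0.63 ± 0.33 to 2.49 ± 0.27 (SD, n = 3), a difference of 3.12. The difference was 2.86 for Itgb7, 1.73 for Icam1, 1.52 for Itga4, 1.49 for Itgb2 and 1.11 for Itgam. It was smallest in size for Vcam1 (0.29) and for Selplg, which alone was lower beside the list in BCP libraries (-0.22). The groups did not overlap for any of the 8 genes (exact two-sided permutation test, p = 0.1 for each, the smallest possible, adjusted p = 0.107). The share of all tested genes without overlap on this scale was not computed. The microglia mean was itself higher in BCP libraries, so subtracting it lowers the difference of every gene, also of an unchanged one. The lack of overlap is thus not particular to these genes on this evidence.

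The choice of markers set the size of these differences. Against Aif1, Csf1r and Cx3cr1 alone, which themselves rose by log2FC 2.40, 1.44 and 1.42, the difference was 2.12 for Itgal, 1.87 for Itgb7, 0.73 for Icam1, 0.52 for Itga4 and 0.49 for Itgb2. For Itgam it shrank to 0.11 with overlapping groups (exact two-sided permutation test, p = 0.7), for Vcam1 it turned to -0.70, and for Selplg it was -1.22. The differences of Itgal, Itgb7, Icam1, Itga4 and Itgb2 were thus above 0 beside both sets of markers. The Itgam groups were apart only beside the wider set, which includes Tmem119 (log2FC 0.19).

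**Figure D4:**
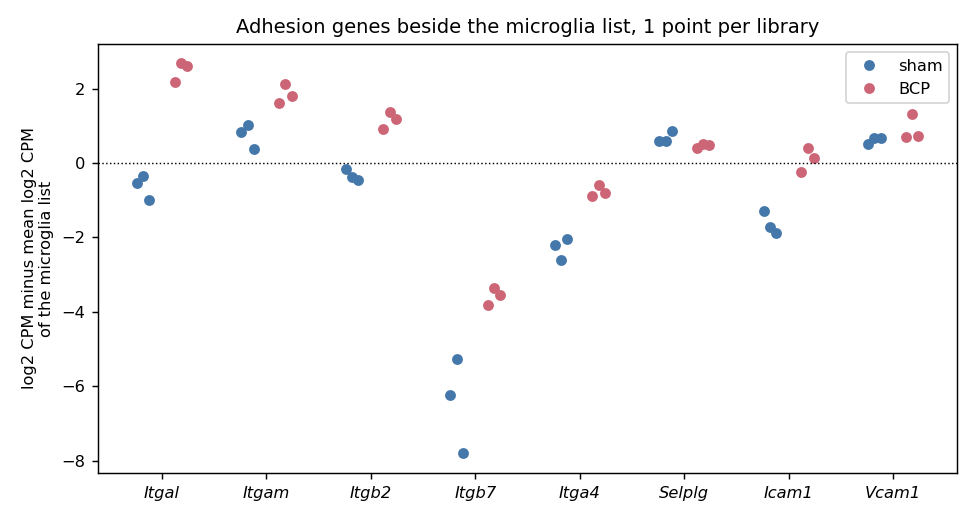
Log2 CPM of each adhesion gene minus the mean log2 CPM of the 11 tested microglia markers in each sham (blue) and BCP (red) library, with the dotted line at the level of the list. Itgal moves from below the line to above it (means -0.63 and 2.49), and Selplg is the gene whose BCP libraries lie below its sham libraries.

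The lncRNA table held 16 transcripts within 10 kb of the spans of these genes, of which 4 had enough counts to be tested and 1 was up-regulated, beside 1.14% of the 12157 tested lncRNAs. NONRATT018295.2 (chr3:66267375-66268862, Rnor_6.0), which lies 3415 bases from Itga4, had 13, 19 and 6 counts in the sham libraries against 53, 66 and 53 in the BCP libraries (log2FC 2.30, standard error 0.38, edgeR adjusted p = 0.0231). The groups did not overlap, but sham library 3 was under the minimum count of 10 and the call was lost when sham library 1 or any of the 3 BCP libraries was left out. Since the use of strand in counting is not stated, its reads cannot be told apart from reads that run past the annotated end of Itga4. The other 3, all near Itgb7, were not called (NONRATT027355.2, NONRATT026334.2 and NONRATT026333.2, with log2FC of -0.29, -0.17 and -1.16).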

How the data were processed

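After removal of ribosomal RNA, stranded libraries were sequenced, and the authors used Seqtk as a read filter, Hisat2 2.0.4 for mapping to Rnor_6.0 and Stringtie 1.3.0 for FPKM. Raw counts and FPKM values per library were deposited for genes and for lncRNA transcripts. The counting program and its use of strand are not given in the sources used here. Groups and replicate numbers were taken from the labels. The deposited counts were tested with edgeR 4.0.16 (R 4.3.3) with its quasi-likelihood test (robust setting, condition as the single term), after the filter by expression (minimum count 10) and TMM normalization, with Benjamini-Hochberg adjustment over all tested features of each table. Standard errors of log2FC were derived from the F statistic. Shares and ratios were computed from the deposited FPKM and tested with exact permutation tests in scipy 1.17.1. Ratios with Itgb7 were kept linear because 1 library was listed at 0, and Itgad could not enter the alpha chain shares. Log2 CPM used a prior count of 1. DESeq2 1.42.0 was an alternative.

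The members, lists and tests were chosen with earlier results of these data known. The text names every member, their partner and counterpart chains, and the called genes with the 4 smallest p-values of each list, except for a few that are not reported here. Pecam1, Fyb1 (present as Fyb), Jchain, Ly6c, Hba-a1 and Hba-a2 had no row of that name. The fit was tested on simulated data with known fold changes. Counting intervals cover counting error only, since PCR duplicates may remain. Libraries of a group differed by more than counting noise (chi-square per degree of freedom 3.60 to 6.30). The biological coefficient of variation common to all tested genes was 7.72%. Single genes can vary more, as Itgal did at 10.6 ± 2.67 CPM in sham libraries (SD, n = 3). Figures were drawn with matplotlib 3.10.9.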

Additional observations from a re-analysis of the deposited data

How the results depend on the processing

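In the alternative fits that kept both thresholds, the log2FC of the 8 adhesion genes kept its direction in all 111 values, counted over genes and fits. It kept its side of the thresholds in 110, the exception being Vcam1 without BCP library 2 (0.95). The log2FC of Itgb7 ranged from 3.08 without sham library 3 to 4.78 without sham library 2. The number of adhesion genes called up ranged from 5, in the test against a fold change of 2, to 8, with no threshold on the fold change, and none was called down. The other adhesion genes called up ranged from 21 to 22. Of all genes, 2352 were called up and 1805 down with no threshold on the fold change, and 548 and 0 in the test against a fold change of 2. The number called down was 37 with no filter on low counts, 6 with at least 10 counts in every library and 16 to 33 when each library was left out, and the cause was not tested. Among the lncRNAs near these genes 0 to 1 were called up when each library was left out, and 0 with the replicate number as a block. Replicate numbers gave no sign of a pairing. Same-numbered libraries deviated with correlations of -0.11, 0.05 and -0.04, and other pairs with -0.13 to 0.15. With 3 libraries a group this cannot exclude a pairing. The block left 7 adhesion genes, 22 other adhesion genes and 907 genes called up, against 946 genes without it. In counts in place of FPKM the difference in the ratio of Itgb7 to Itgae was 0.253 in place of 0.444, which follows from the unequal lengths. Against Aif1, Csf1r and Cx3cr1 alone the difference of Vcam1 from the microglia markers was reversed to -0.70. With 3 libraries a group, the exact tests could not pass 0.05.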
